A study of Mus musculus with 6 samples.

Results

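The genes described here encode sensors of foreign or misplaced nucleic acid in the cytosol and the endosome, together with the adaptor, kinase and transcription factors that pass their signal on. The members, 10 of the 56262 genes in the count table, were listed by symbol: Ddx58, Ifih1, Dhx58, Mavs, Tbk1, Irf3, Irf7, Tlr3, Tlr7 and Zbp1. Lung RNA was sequenced from 3 R/R mice and 3 WT mice, all 8 weeks of age and untreated. R/R mice carried the RBM47 substitutions K329R and K332R on both alleles, made by genome editing in the germline and therefore present in every cell type, whereas WT mice carried neither. RBM47 is an RNA-binding protein that is modified by the ubiquitin-like protein ISG15. K329R removes a lysine that accepts ISG15 in the human and the mouse protein. K332R removes a further lysine of the mouse protein, to which the study assigns another band modified by ISG15. The study's methods describe the WT animals as littermates, and each lung was a separate library.

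In the cytosol, the helicases encoded by Ddx58 (RIG-I) and Ifih1 (MDA5) bind viral RNA and signal through Mavs, an adaptor on the outer mitochondrial membrane. In the endosome, Tlr3 and Tlr7 bind double-stranded and single-stranded RNA. Both routes lead to kinases, among them Tbk1, and depending on the receptor these phosphorylate Irf3, Irf7 or both. Irf3 and Irf7 are the factors that switch on type I interferon genes. Interferon then raises the expression of many genes of the same pathway, among them Irf7, Ddx58, Ifih1, Dhx58 and Zbp1. In the lung these genes are known from the defence of epithelium, macrophages and dendritic cells against respiratory viruses.

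Of the 10 sensor genes, Irf7 alone was called different between the genotypes, being lower in R/R lungs at 69.6% of the WT level (95% confidence interval 60.8% to 79.6%). All 10 had enough counts to be tested, and 1 was called at an adjusted p of 0.05 by edgeR's quasi-likelihood test, against 1.75% of the 17120 genes tested in either direction and 1.1% in the lower direction. Irf3, the close relative of Irf7, the adaptor Mavs, the kinase Tbk1 and the endosomal receptors did not pass the test. The estimate was below 0 in 5 of the 10 genes (48.8% of all genes tested), with a median log2 fold change of -0.024 where that of all genes tested was 0.0045. For 4 of the 10, Ddx58, Ifih1, Irf7 and Zbp1, the R/R lungs all lay below the lowest WT lung, against 9.5% of all genes tested. For 1 of the 10, Tlr7, they all lay above the highest WT lung, against 9.17%. An unadjusted p under 0.05 with a lower level was found for 2 of the 10, Irf7 and Ddx58, against 7.68%, and for 1 of the 10, Irf7, with DESeq2 or edgeR's exact test.

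**Figure D1:**
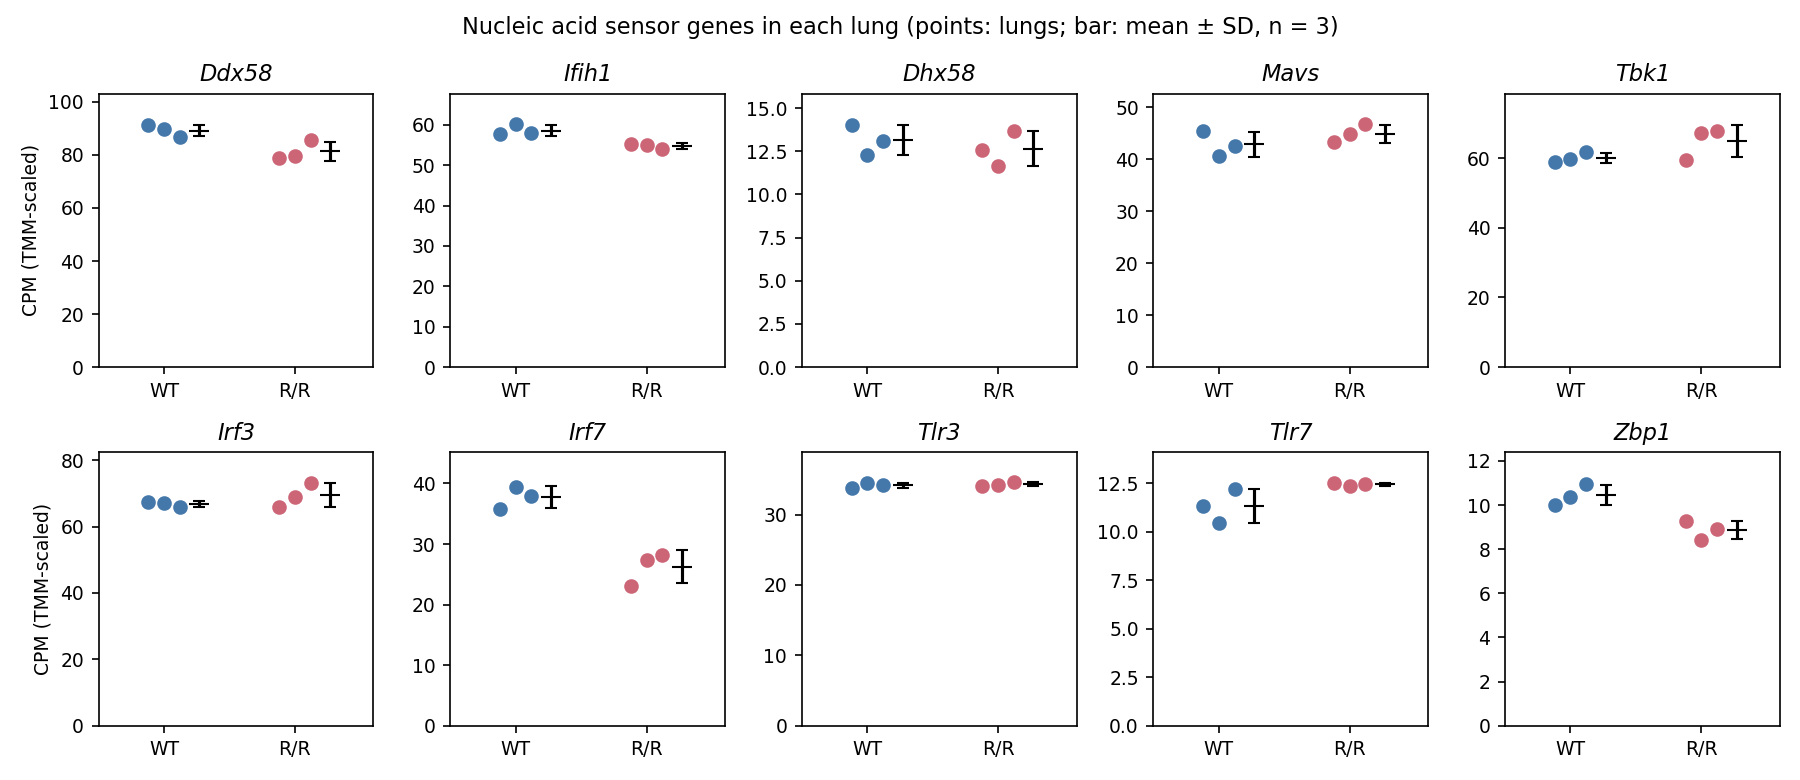
CPM (vertical axis from 0) of the 10 sensor genes, with a point for each of 3 WT lungs (blue) and 3 R/R lungs (red) and a bar for the mean ± SD. Irf7 lies between 23.1 and 28.3 CPM in R/R lungs and between 35.8 and 39.4 CPM in WT lungs, while most other panels show overlapping or nearly touching groups.

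The libraries held between 16501092 and 18141067 read pairs counted on genes, so that 1 count was worth 0.0552 to 0.0607 CPM (counts per 1000000 counts of a library). Levels are CPM after scaling by TMM, and a fold change is the log2 ratio of R/R to WT with its standard error (SE). Called genes numbered 189 in the lower and 111 in the higher direction. Rbm47 itself had a log2 fold change of 0.10 (SE 0.08, adjusted p = 0.660), a value that does not show the substitutions, which counts per gene cannot reveal. Markers of lung cells were abundant in both genotypes, with Sftpc, the surfactant protein of type 2 cells, at 11110 ± 1076 CPM in WT lungs (SD, n = 3). The exact permutation test of a single gene cannot go below p = 0.1 with 3 lungs against 3, and Ddx58, Ifih1, Irf7, Tlr7 and Zbp1 reached that value.

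Irf7 is the interferon-induced factor that drives most interferon-alpha genes. In the files it is ENSMUSG00000025498.15, on the minus strand at chr7:141262706-141266481 (GRCm38). R/R replicate 1 had 23.1 CPM, replicate 2 had 27.4 CPM and replicate 3 had 28.3 CPM, where WT replicate 1 had 35.8 CPM, replicate 2 had 39.4 CPM and replicate 3 had 37.9 CPM. Lungs are listed in this order throughout. The highest R/R lung was below the lowest WT lung, and R/R replicate 1 was the lowest of the 6. Group means were 26.3 ± 2.74 CPM in R/R and 37.7 ± 1.83 CPM in WT lungs (SD, n = 3), resting on 417 to 480 and 589 to 714 counts per lung. The log2 fold change was -0.52 (SE 0.09, adjusted p = 0.0172), and Irf7 ranked 82 by p among the 17120 genes tested. The call was lost when R/R replicate 2 was left out (log2 fold change -0.55, adjusted p = 0.0619) and when WT replicate 2 was left out (-0.49, adjusted p = 0.0599). Counting used no strand and Irf7 shares 45 exon bases (1.19% of its exons) with Phrf1 on the opposite strand, whose own log2 fold change was -0.05 (adjusted p = 0.748).

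Irf3 (ENSMUSG00000003184.15, plus strand, chr7:44997648-45002848) encodes the factor that is present before any stimulus and starts the interferon response. It had 66.0, 69.1 and 73.3 CPM in R/R lungs and 67.5, 67.0 and 66.0 CPM in WT lungs, and the groups overlapped. Its log2 fold change was 0.06 (95% confidence interval -0.08 to 0.19, adjusted p = 0.758). It shares 88 exon bases with Bcl2l12 on the opposite strand. The log2 ratio of Irf7 to Irf3 counts within each lung, which no library scaling touches, was -1.51, -1.33 and -1.37 in R/R lungs and -0.92, -0.77 and -0.80 in WT lungs. The ratio was lower in every R/R lung than in every WT lung, with a mean difference of -0.58 (exact permutation, two-sided p = 0.1, the lowest that 3 against 3 allow). The same difference was -0.59 against Mavs, -0.63 against Tbk1 and -0.53 against Tlr3, again with no overlap between the genotypes.

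The bases upstream of Irf7 and Irf3 are shown because, of this pair of related factors, only Irf7 was called between the genotypes. They come from RefSeq windows on GRCm38.p6, restricted to bases before the start of the gene in both RefSeq and GENCODE, and capitals mark each GAAA or its complement TTTC, the repeated unit of the interferon-stimulated response element. The first is chr7:141266482-141266674 on the minus strand (193 bases) and the second is chr7:44997398-44997647 on the plus strand (250 bases).
Irf7: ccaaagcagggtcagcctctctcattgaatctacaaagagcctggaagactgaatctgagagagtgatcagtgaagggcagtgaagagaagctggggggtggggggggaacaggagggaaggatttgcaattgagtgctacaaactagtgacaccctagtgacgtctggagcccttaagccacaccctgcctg
Irf3: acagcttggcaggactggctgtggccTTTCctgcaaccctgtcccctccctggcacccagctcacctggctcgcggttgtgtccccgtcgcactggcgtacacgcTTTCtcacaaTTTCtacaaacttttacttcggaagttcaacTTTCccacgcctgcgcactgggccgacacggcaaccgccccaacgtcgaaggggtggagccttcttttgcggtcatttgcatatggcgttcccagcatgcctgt
The Irf7 stretch, the shorter one, holds no GAAA or TTTC and the Irf3 stretch holds 4. In the full RefSeq windows of 300 bases, Irf7 had 1 and Irf3 had 4. The core of the response element was searched as GAAANNGAAA on either strand, in the 300 bases from 250 before to 50 after each RefSeq start, and neither gene had a match there. Of 32851 such windows in the table, 3.44% held the core.

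The core was present in 2 of the 7 sensor genes that have a window in the table, Ddx58 and Ifih1. Dhx58, Tlr7 and Zbp1 have no entry. A spacing of a single base, GAAANGAAA, was added after the sequences had been seen. It occurred in Ddx58 and in 3.17% of all windows. The matching stretches of 30 bases are printed with the match in capitals, beside those of Oas3 and Rsad2, a pair of interferon-induced genes described further on that were lower in R/R lungs.
Ddx58, chr4:40239804-40239833, minus strand: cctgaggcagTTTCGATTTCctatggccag
Ddx58, spacing of a single base, chr4:40239866-40239895, minus strand: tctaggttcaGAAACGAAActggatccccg
Ifih1, chr2:62646206-62646235, minus strand: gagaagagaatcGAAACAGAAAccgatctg
Oas3, chr5:120777715-120777744, minus strand: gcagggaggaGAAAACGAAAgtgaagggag
Rsad2, chr12:26456553-26456582, minus strand: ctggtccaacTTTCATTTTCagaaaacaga
In Ddx58 the core began at base 3 and in Ifih1 at base 33, counted with the RefSeq start as the first base. It began 75 bases before the start in Oas3 and 120 bases before it in Rsad2. These matches describe letters, not bound sites. Irf7, the sensor gene that was called, had no match in its window, while Ddx58 and Ifih1, which were not called, held the core. A search for an exact string in a short window cannot show that a gene lacks a response element. For Irf7 the RefSeq and GENCODE starts also lie 57 bases apart. Whether a response element acts on Irf7 in these lungs was not tested.

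Ddx58 (ENSMUSG00000040296.15, chr4:40203773-40239828, minus strand) encodes RIG-I, which recognises short RNA with a 5' triphosphate. It had 78.8, 79.7 and 85.6 CPM in R/R lungs and 91.1, 89.7 and 86.8 CPM in WT lungs. The groups did not overlap, although R/R replicate 3 lay close to WT replicate 3. The log2 fold change was -0.13 (SE 0.06, unadjusted p = 0.0443, adjusted p = 0.334), and its interval of -0.26 to -0.0040 allows a level between 83.5% and 99.7% of WT.

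Ifih1 (ENSMUSG00000026896.14, chr2:62595798-62646255, minus strand) encodes MDA5, which binds long double-stranded RNA. Its level was 55.2, 55.0 and 54.0 CPM in R/R lungs and 57.6, 60.2 and 57.8 CPM in WT lungs. R/R lungs were below WT lungs without overlap, by a small margin, with a log2 fold change of -0.10 (SE 0.06, adjusted p = 0.510). The log2 ratio of Ddx58 to Ifih1 within each lung was 0.57 ± 0.08 in R/R and 0.61 ± 0.05 in WT lungs (SD, n = 3; exact two-sided permutation test, p = 0.6).

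Dhx58 (ENSMUSG00000017830.15, chr11:100694884-100704271, minus strand) encodes LGP2, a related helicase without signalling domains that tunes the other helicases. It had 12.6, 11.7 and 13.7 CPM in R/R lungs and 14.03, 12.3 and 13.1 CPM in WT lungs. The groups overlapped and the log2 fold change was -0.06 (SE 0.11, adjusted p = 0.882). It shares 141 exon bases with the antisense gene Dhx58os, which had between 1 and 4 counts per lung.

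**Figure D2:**
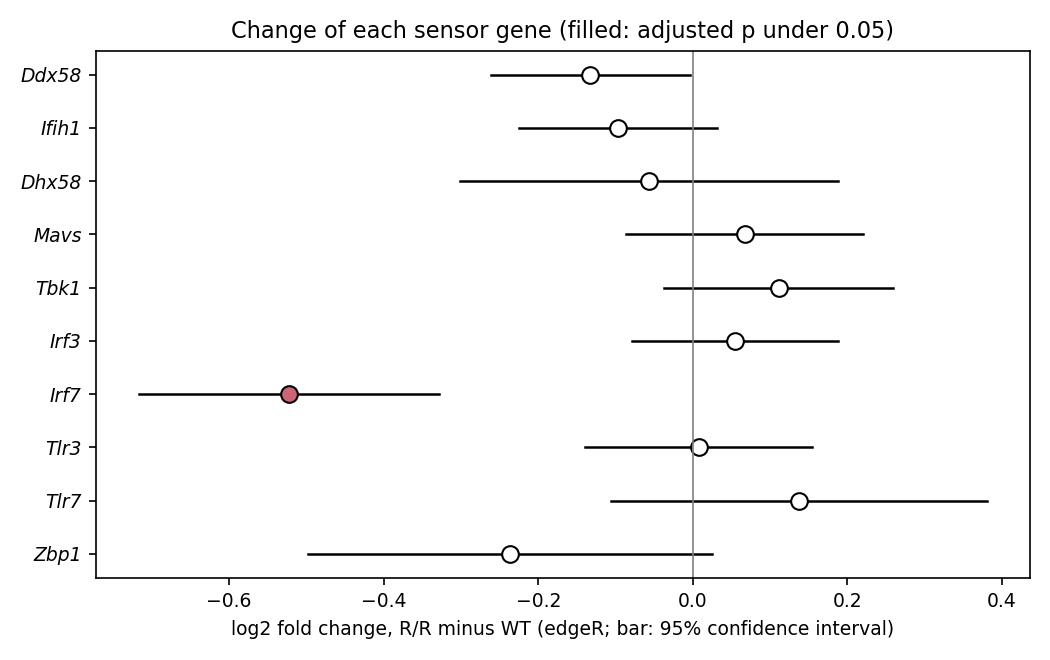
log2 fold change of each sensor gene (R/R minus WT, horizontal axis) with its 95% confidence interval from edgeR, filled where the adjusted p was under 0.05. Only the Irf7 interval, -0.72 to -0.33, lies far from 0, and that of Ddx58 ends just below 0.

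Mavs (ENSMUSG00000037523.13, chr2:131234063-131248025, plus strand) had 43.3, 44.8 and 46.7 CPM in R/R lungs and 45.4, 40.7 and 42.6 CPM in WT lungs. Its log2 fold change was 0.07 (95% confidence interval -0.09 to 0.22, adjusted p = 0.741), and the lungs of the genotypes were interleaved.

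Tbk1 (ENSMUSG00000020115.3, chr10:121546455-121586787, minus strand), whose kinase phosphorylates both interferon regulatory factors, had 59.5, 67.3 and 67.9 CPM in R/R lungs and 58.7, 59.7 and 61.7 CPM in WT lungs. R/R replicates 2 and 3 were above all WT lungs and R/R replicate 1 was within their range. With a log2 fold change of 0.11 (SE 0.07, adjusted p = 0.512), Tbk1 did not pass the test.

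Tlr3 (ENSMUSG00000031639.12, chr8:45395665-45411080, minus strand), the receptor for double-stranded RNA, varied least of the 10 genes between lungs. It had 34.1, 34.3 and 34.7 CPM in R/R lungs and 33.8, 34.5 and 34.3 CPM in WT lungs. The log2 fold change was 0.0078 (adjusted p = 0.978), with an interval of -0.14 to 0.15, and it was -0.0030 without WT replicate 1.

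Tlr7 (ENSMUSG00000044583.13, chrX:167304929-167330558, minus strand), the receptor for single-stranded RNA, had 12.5, 12.4 and 12.4 CPM in R/R lungs and 11.3, 10.4 and 12.2 CPM in WT lungs. R/R lungs were above WT lungs without overlap, but the gap to WT replicate 3 was small. Its log2 fold change was 0.14 (SE 0.11, adjusted p = 0.647), and the interval runs from -0.11 to 0.38.

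Zbp1 (ENSMUSG00000027514.14, chr2:173206612-173218923, minus strand) encodes a sensor of Z-form nucleic acid that can trigger necroptosis. It had 9.27, 8.43 and 8.89 CPM in R/R lungs and 10.02, 10.4 and 10.95 CPM in WT lungs. All R/R lungs were below all WT lungs, with means of 8.86 ± 0.42 and 10.4 ± 0.47 CPM (SD, n = 3). Its log2 fold change of -0.24 (SE 0.12, unadjusted p = 0.0716, adjusted p = 0.410) did not pass the test. Its counts, 141 to 188 per lung, were the lowest of the 10 genes.

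Levels of different genes were compared per length, as RPKM (CPM per 1000 exon bases). With all exons of a gene as the length, the order in WT lungs was Irf3 (19.4 ± 0.23 RPKM), Tbk1 (15.4 ± 0.39), Mavs (12.8 ± 0.72), Ddx58 (12.7 ± 0.31), Irf7 (9.99 ± 0.48), Ifih1 (7.17 ± 0.17), Tlr3 (6.56 ± 0.07), Dhx58 (4.02 ± 0.26), Zbp1 (2.96 ± 0.13) and Tlr7 (2.77 ± 0.21; SD, n = 3). The lungs of neighbours in this order did not overlap, except for Mavs with Ddx58 and for Zbp1 with Tlr7. In R/R lungs Irf7 was at 6.96 ± 0.73 RPKM, close to Ifih1 at 6.71 ± 0.08 and Tlr3 at 6.60 ± 0.06, and Tlr7 at 3.05 ± 0.01 stood above Zbp1 at 2.51 ± 0.12 (SD, n = 3). The length matters to the order. The annotation of Irf7 merges into 1 exon of 3776 bases that spans the whole gene, so that reads from its introns were counted too, whereas its longest coding transcript has 2237 bases. With the longest coding transcript as the length, Irf7 was at 16.9 RPKM in WT and 11.7 RPKM in R/R lungs, Ddx58 took place 2 in WT lungs at 23.0 RPKM, and Mavs was at place 5 at 14.03 RPKM.

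**Figure D3:**
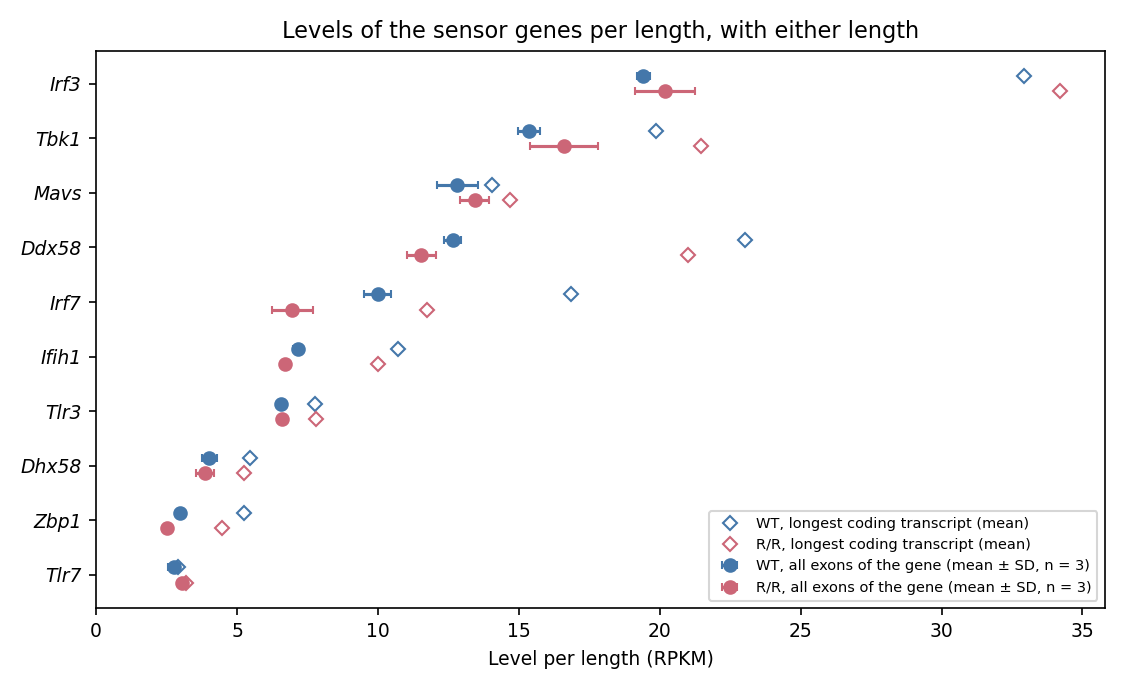
Level per length (RPKM, horizontal axis from 0) of the 10 sensor genes in WT (blue) and R/R lungs (red), with all exons as the length (filled, mean ± SD, n = 3) or the longest coding transcript (open diamonds, mean). Irf3 is highest with either length. Tlr7 is lowest, except in R/R lungs with all exons, where Zbp1 is. In WT lungs the places of Tbk1, Ddx58, Mavs and Irf7 depend on the length.

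A list of 79 further genes of the pathway, chosen by role, had 78 that were tested. Of these, 1 was called, Oas3, which was lower (1.1% of all genes tested were called lower). None of the 78 was called higher, against 0.648% of all genes tested. The estimate was below 0 in 47 of the 78 genes (48.8% of all genes tested), with a median log2 fold change of -0.040, and R/R lungs were below WT lungs without overlap in 15 and above them in 4, where the shares over all genes tested were 9.5% and 9.17%.

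Oas3, one of the enzymes that make 2'-5' oligoadenylates on double-stranded RNA to activate the nuclease RNase L, had 5.16, 4.48 and 6.07 CPM in R/R lungs and 10.5, 8.06 and 10.4 CPM in WT lungs. R/R lungs were at 54.4% of WT (log2 fold change -0.88, SE 0.17, adjusted p = 0.0308) with no overlap. The call was lost without R/R replicate 1 (adjusted p = 0.0638), R/R replicate 2 (0.117) or WT replicate 1 (0.1199). Its neighbour Oas2 had a log2 fold change of -0.47 (adjusted p = 0.148) with overlapping groups. The other 13 genes of cytosolic RNA sensing were not called, and the median of the 15 was -0.10.

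Among the 12 tested genes of cytosolic DNA sensing none was called, with a median of 0.0055. The lowest p belonged to Ifi203 (log2 fold change -0.21, adjusted p = 0.159) and Ifi204 (-0.44, adjusted p = 0.186), both members of a gene family with near-identical copies, for which counts of uniquely mapped reads are uncertain. Of the 9 genes for endosomal receptors and their handling none was called. The protease Lgmn had 0.20 (adjusted p = 0.230), and Tlr13, a receptor for bacterial ribosomal RNA, had -0.41 (adjusted p = 0.245).

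The 15 further adaptors and kinases held no called gene and had a median of -0.039. Ikbke, the kinase most like Tbk1 and induced by interferon, had 12.3, 10.3 and 12.1 CPM in R/R lungs and 14.7, 15.7 and 15.2 CPM in WT lungs. The groups did not overlap, and the log2 fold change was -0.40 (SE 0.11, adjusted p = 0.108). Traf3, a ubiquitin ligase that joins Mavs to the kinases, had -0.13 (adjusted p = 0.367).

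None of the 7 other interferon regulatory factors was called, with a median of -0.091. Irf9, the DNA-binding part of the complex that interferon activates, had 65.7, 69.8 and 69.2 CPM in R/R lungs and 87.6, 86.0 and 72.0 CPM in WT lungs, where WT replicate 3 lay close to the R/R lungs (log2 fold change -0.26, adjusted p = 0.129). Irf4, a factor of lymphocytes, had -0.42 (adjusted p = 0.321). The 5 partners of Zbp1 in cell death included Mlkl at 0.30 (adjusted p = 0.413) and Ripk3 at -0.11 (adjusted p = 0.742). The 15 inhibitors of the pathway included Tax1bp1 at 0.16 (adjusted p = 0.246) and Itch at -0.12 (adjusted p = 0.428), and neither set held a called gene.

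**Figure D4:**
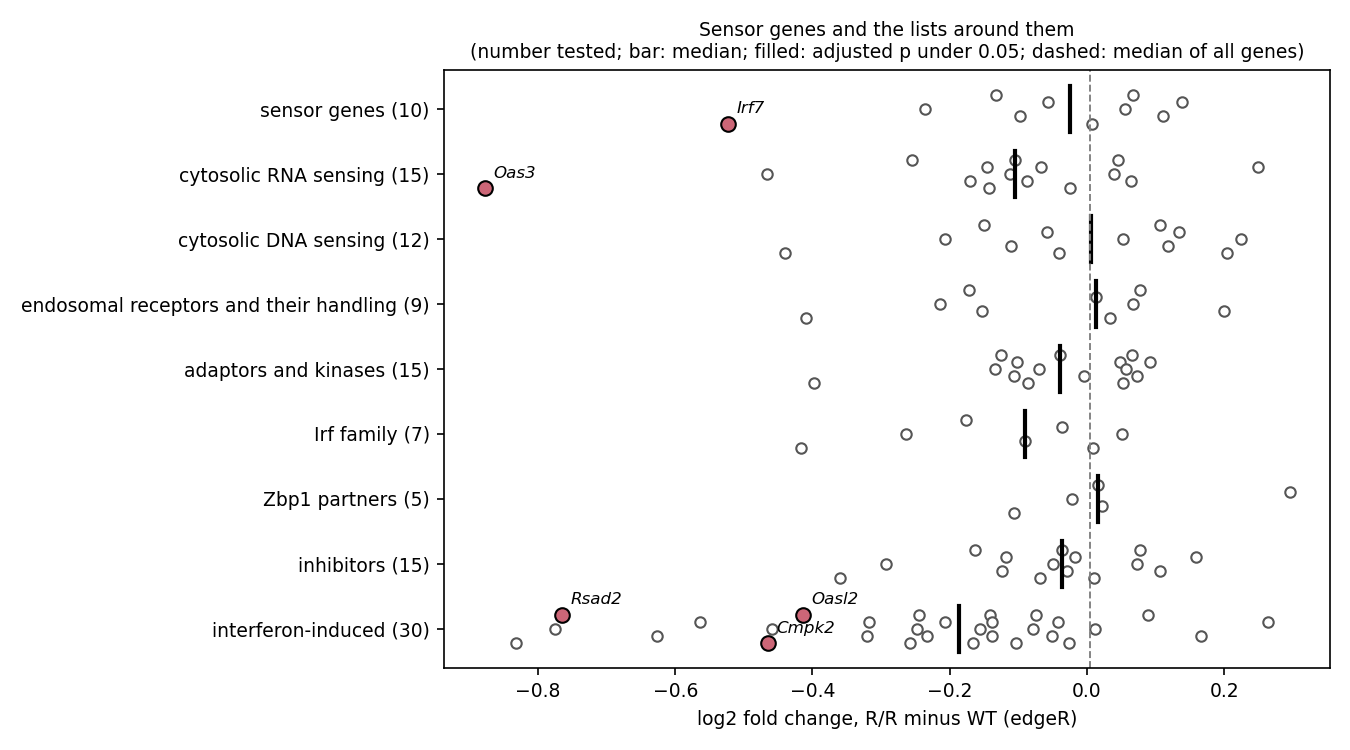
log2 fold change (R/R minus WT, horizontal axis) of each tested gene of the sensor list, of 7 roles of the wider pathway and of the interferon-induced list, with the number tested in brackets, a bar at each median and a dashed line at the median of all genes. Called genes are filled: Irf7, Oas3, Oasl2, Cmpk2 and Rsad2, all lower in R/R lungs, and the interferon-induced list has its median at -0.19.

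The products of the pathway were looked for next. Of 21 interferon genes, 18 had no count in any of the 6 lungs, among them Ifnb1 and all the interferon-alpha genes in the list. A count of 0 allows up to 3 counts, 0.165 to 0.182 CPM at these depths, for counting error only, and pairs that mapped to several of the near-identical interferon-alpha genes were not counted. Ifng had 3, 0 and 3 counts in the R/R libraries against 5, 6 and 2 in the WT libraries, too few to compare at this depth.

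Of 30 genes that type I interferon induces, all were tested, 26 had an estimate below 0 (48.8% of all genes tested), and the median log2 fold change was -0.19. The called genes were 3, all lower, where 1.75% of all genes tested were called in either direction and 1.1% in the lower one. Oasl2, an oligoadenylate synthetase relative, had 67.7, 64.5 and 72.0 CPM in R/R lungs and 92.3, 93.8 and 85.8 CPM in WT lungs (log2 fold change -0.41, adjusted p = 0.0115). Cmpk2, a mitochondrial nucleotide kinase, had 35.02, 31.8 and 32.2 CPM against 47.6, 46.7 and 42.4 CPM (-0.46, adjusted p = 0.0150). Rsad2, which encodes viperin, had 6.05, 6.34 and 8.01 CPM against 12.4, 12.2 and 10.1 CPM (-0.77, adjusted p = 0.0321). The highest R/R lung was below the lowest WT lung in each of them, as in 13 of the 30 genes and in 9.5% of all genes tested. Xaf1 at -0.32 (adjusted p = 0.0558) and Mx1 at -0.63 (adjusted p = 0.0573) did not pass the test. The called genes numbered 0 without R/R replicate 2 or WT replicate 1, 1 without WT replicate 2 and 7 without WT replicate 3 (edgeR), while 11 to 19 of the 30 had an unadjusted p under 0.05 in either direction in these fits. With all lungs, 16 of the 30 had an unadjusted p under 0.05 with a lower level and 1 with a higher level. Of the 17120 genes tested, 1314 and 1119 did so. The core GAAANNGAAA was in the window of 9 of the 23 genes of this list that have one (39.1%), and Oasl2 and Cmpk2 were not among them.

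The pattern over the 6 lungs was compared with that of 14190 other genes of at least 1 on the mean log2 CPM scale, by the root mean square difference of log2 CPM after centring each gene. Nearest to Irf7 were Kdelr3 (0.0551), a receptor that returns proteins to the endoplasmic reticulum, Stab2 (0.0593), a scavenger receptor of endothelium, and Clec2i (0.0687), a lectin-like gene. Kdelr3 was called (log2 fold change -0.53, adjusted p = 0.0432), and the others were not. Nearest to the mean pattern of the 10 sensor genes were Slc37a3 (0.00931), U2af2 (0.0134), Anapc2 (0.0150), Ncor1 (0.0154) and Smarcd2 (0.0154), none of which was called. Both sets were picked on the same 6 lungs, so fold changes close to those of the pattern they were matched to follow from the choice.

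Whole lung holds many cell types, and in bulk RNA fewer cells of a type and less RNA per cell cannot be told apart. Markers of some cell types differed between the genotypes in the same direction as Irf7. All 8 B cell markers had estimates below 0, and 4 were called lower, Ms4a1, Cd79a, Pax5 and Fcer2a. Their summed level was 131.5, 123.6 and 99.13 CPM in R/R lungs and 206.6, 163.0 and 166.8 CPM in WT lungs. Whether this sum and Irf7 varied together between lungs was not tested. The level of Ms4a1 was 10.96 ± 1.49 CPM in R/R and 21.8 ± 3.20 CPM in WT lungs (SD, n = 3). All 9 T cell markers had estimates below 0 and none was called, with 5 at an unadjusted p under 0.05 (7.68% of all genes tested in the lower direction). Their sums were 41.5 to 51.2 CPM in R/R and 60.8 to 81.7 CPM in WT lungs.

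Alveolar macrophage markers lay on the other side, with 7 of 9 estimates above 0, Chil3 and Mrc1 called higher, and sums of 1004 to 1138 CPM in R/R and 715 to 898 CPM in WT lungs. Markers of plasmacytoid dendritic cells, which hold much Irf7 protein, overlapped between the genotypes (278 to 296 CPM in R/R, 268 to 287 CPM in WT). Most of that sum was Tcf4, which other lung cells express, and of the 6 markers tested 5 had estimates above 0, 1 below it and none was called. Siglech, a more specific marker, had 4.15 ± 0.54 and 3.43 ± 0.67 CPM (SD, n = 3; log2 fold change 0.27, adjusted p = 0.632), and Pacsin1, which lay below WT lungs without overlap, had 2.001 ± 0.36 and 2.99 ± 0.32 CPM (SD, n = 3; -0.57, adjusted p = 0.294). Conventional dendritic cell markers overlapped too (129 to 141 and 137 to 157 CPM). The 8 monocyte markers summed to 1756 to 1807 CPM in R/R and 1814 to 1963 CPM in WT lungs, without overlap, most of it Ace, which endothelium expresses. Of these markers, 6 had estimates below 0, among them Treml4 (log2 fold change -0.76, adjusted p = 0.0761), and none was called lower. The other 2 had estimates above 0, and of these Nr4a1 was called higher (log2 fold change 0.76, adjusted p = 0.0148).

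Neutrophil markers had 6 of 6 tested estimates below 0, with a median of -1.01 and none called. All 6 had an unadjusted p under 0.05 (7.68% of all genes tested in the lower direction). Their sums of 75.6 to 109 CPM in R/R and 78.3 to 218 CPM in WT lungs overlapped because WT replicate 2 was as low as the R/R lungs. Sums of alveolar epithelium markers lay narrowly above those of all WT lungs in every R/R lung (24570 to 26040 against 19860 to 24070 CPM). Of these 10 markers, 9 had estimates above 0 and Aqp5 was called. Much of the sum was Sftpc (means of 13240 CPM in R/R and 11110 CPM in WT lungs), while Ager (log2 fold change 0.02) and Rtkn2 (-0.04) had estimates near 0. Fibroblast sums lay below (2825 to 3132 against 3202 to 3775 CPM), with none of 6 called. Of these, 5 had estimates below 0, and Dcn had 0.40 (adjusted p = 0.426). Airway epithelium (12180 to 16120 and 10110 to 15010 CPM) and endothelium (5368 to 5661 and 5477 to 6347 CPM) overlapped. No marker of the 11 lists was at 0 in all 6 lungs. The part of these cell types in the Irf7 difference was not tested.

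**Figure D5:**
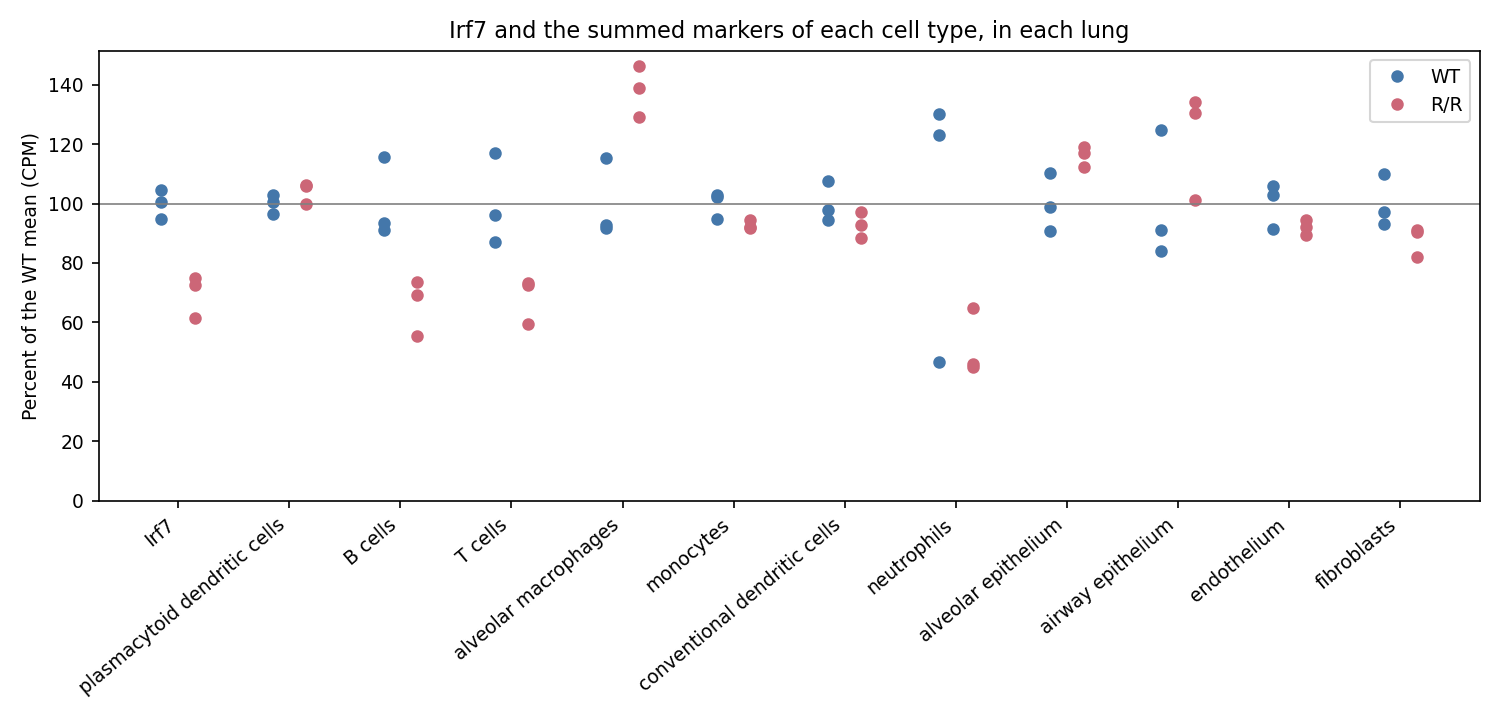
Irf7 and the summed CPM of the markers of 11 cell types in each lung, as a percent of the WT mean (vertical axis from 0), with WT lungs in blue and R/R lungs in red. R/R lungs lie below all WT lungs for Irf7, B cells, T cells, monocytes and fibroblasts and above them for alveolar macrophages and alveolar epithelium. Neutrophil markers in WT replicate 2 lie among the R/R lungs.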

How the data were processed

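RNA-seq with paired reads of 150 bases was run on lungs of 3 R/R and 3 WT mice, and groups and replicate numbers came from the sample labels. Reads were aligned by the authors with HISAT2 2.1.0 (mm10, GRCm38), and the deposited values are raw counts per gene from featureCounts 2.0.1 on the GENCODE M25 exons, without strand and without pairs that map to several places. In the records of this work, 1 WT column stands as another unit, for a technical reason, although it holds whole-number counts like the other columns. The submitters' processing notes also name DESeq2.

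Symbols came from GENCODE M21 and matched 55141 identifiers. Genes were kept by filterByExpr (minimum count 10), scaled by TMM and compared by the quasi-likelihood test of edgeR 4.0.16 in R 4.3.3, with Benjamini-Hochberg adjustment over all genes tested and a threshold of 0.05. The tools were checked on simulated counts. For single values an exact permutation test, two-sided, was run on log2 CPM with a prior count of 0.5. The biological coefficient of variation was 8.62%. The limit that a count of 0 allows covers counting error only. As alternatives, limma-voom (limma 3.58.1), DESeq2 1.42.0 and the exact test of edgeR were run, with other scalings and filters, a replicate block and each library left out in turn.

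The members and lists were chosen with earlier results of these data known. Named genes were all members, every called gene of the wider list and the 2 lowest p in each role, the 5 lowest p of the interferon-induced list, the genes nearest in pattern, and markers of cell types that moved. Kept apart from this rule, Phrf1, Bcl2l12 and Dhx58os are named as overlapping genes, Ifnb1 and Ifng as interferon genes, and Rbm47 as the edited gene. Sequences came from RefSeq promoter windows (GRCm38.p6). Libraries of 1 genotype differed by more than counting noise (chi-square per degree of freedom at least 5.65). Protein sequences were not used here. A marker gene of the lists is not reported here.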

Additional observations from a re-analysis of the deposited data

How the results depend on the processing

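Irf7 was called under DESeq2, edgeR's exact test, limma-voom, each scaling and each filter, with log2 fold changes from -0.53 to -0.52, and under the replicate block (-0.52, adjusted p = 0.00818). With 1 library left out its log2 fold change ran from -0.58 to -0.44, and the number of sensor genes called was 0 to 1, being 0 without R/R replicate 2 or WT replicate 2, where 1 sensor gene had an unadjusted p under 0.05 in edgeR. The log2 fold change of Tlr3 ran from -0.0030 (without WT replicate 1) to 0.013 (without WT replicate 2). The median of the sensor genes was 0.0045 without R/R replicate 2 and below 0 otherwise. The number of genes called over the whole table, 300, was 529 with DESeq2, 630 with edgeR's exact test and 1109 with no filter on low counts, and 65 to 621 with 1 library left out. The wider pathway had 3 called genes with no filter (Oas2, Oas3 and Irf9) and 0 to 3 with 1 library left out, with at least 9 at an unadjusted p under 0.05 in either direction. With all lungs, 12 of its 78 tested genes had an unadjusted p under 0.05 with a lower level and 3 with a higher level. Of the 17120 genes tested, 1314 and 1119 did so. The number of interferon-induced genes called, an alternative chosen after seeing the data, was 5 with DESeq2, 9 with the exact test, 11 with no filter and 0 to 7 with 1 library left out. The labels share replicate numbers, but same-numbered lungs did not deviate together (correlations of -0.0139, -0.00355 and -0.0148). With 3 lungs per genotype these correlations cannot decide whether the numbers pair animals, and the labels state no pairing. The replicate block gave 446 called genes in all and changed no call among the sensor genes. The causes of these shifts were not tested. At this depth and with 3 lungs per genotype, the 95% confidence intervals of the sensor genes that were not called all include 0, except that of Ddx58.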
